A study of Mus musculus with 4 samples.

Results

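The genes described here are the DNA repair genes of a human colon carcinoma line. Untreated cells were compared with cells given a compound directed at the histone methyltransferase SUV39H1. Genes were taken by a pattern of symbols covering crosslink repair, recombination, end joining, checkpoint kinases, mismatch repair, excision repair and the PARP enzymes. That pattern was chosen with earlier results of these data known, so shares over its genes are descriptions. The pattern took 47 of the 14884 genes that the platform's annotation names. Each gene was represented by the probe set with the highest mean over the 4 arrays. Only CHEK2 and MSH5 had more than 1 probe set, so the 47 genes rest on 49 probe sets. None of the 10 symbols listed for the Fanconi anaemia group, and 1 of the 14 listed for nucleotide excision repair, could be analysed here.

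RNA came from SW620, an established colon carcinoma line grown in RPMI medium with serum. The control group held 2 arrays of untreated cells. The treated group held 2 arrays of cells given F5446 at 50 nM for 2 days, a small molecule that the protocol describes as selective for SUV39H1. The series calls the arrays of a group biological replicates. The labels name no separate cultures, and p-values here reflect only how far these arrays differ, which may be technical. All cells are of 1 line, and the treated cells are of 1 dose and time. No vehicle and no culture time are named for the untreated cells. The records list mouse as the species, but SW620 is human and the annotation carries human gene symbols, so the values were read as human. SUV39H1 itself had a log2 signal of 9.12 and 9.17 in control cells and 7.47 and 7.36 after F5446, a log2 fold change of -1.73 ± 0.08 (SE, limma adjusted p = 3.44e-07). A compound need not lower the mRNA of its target, so this value checks no label.

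Cells mend DNA by several routes that share few proteins. Breaks across both strands are either joined end to end or copied from the sister chromatid by homologous recombination, a route open mainly in S and G2 phase, when a sister is present. Mismatch repair corrects copying errors just behind the replication fork, base excision repair removes damaged or wrong bases through a glycosylase and an endonuclease, and nucleotide excision repair cuts out bulky lesions. Checkpoint kinases hold the cell cycle while repair proceeds. Many recombination and fork-linked repair genes are known to be transcribed mostly in dividing cells, whereas the core factors of end joining and base excision are expressed throughout the cycle.

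Most of the repair genes had less mRNA signal after F5446. Of the 47 genes, 33 fell, 1 rose and 13 did not pass the test, which was limma's with Benjamini-Hochberg adjustment over all 14884 named genes and a threshold of 0.05. Over all named genes 22.7% fell, 18.2% rose and 40.9% changed in either direction, against 70.2% of the repair genes falling. Their median log2 fold change was -0.65, a 1.57-fold lower signal, while the median of all named genes was -0.05. There were 18 repair genes that fell at least 2-fold, as 7.32% of all named genes did, and 7 that fell at least 4-fold, as 1.71% did. The log2 fold change was below 0 for 42 of the 47 genes, against 55.3% of all named genes. Both treated arrays lay below both control arrays for 41 of the 47 genes, above them for 3, and overlapped them for 3, where 37.7% of all named genes lay below and 28.4% above. After every array was centred on its own median over named genes, 29 repair genes fell and 1 rose, and the median was -0.53; that centring raises log2 fold changes by about 0.13, and over all named genes it turns 2714 rises and 3372 falls into 3420 and 2735. In bulk RNA, fewer dividing cells and less of the mRNA in each cell cannot be told apart.

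**Figure D1:**
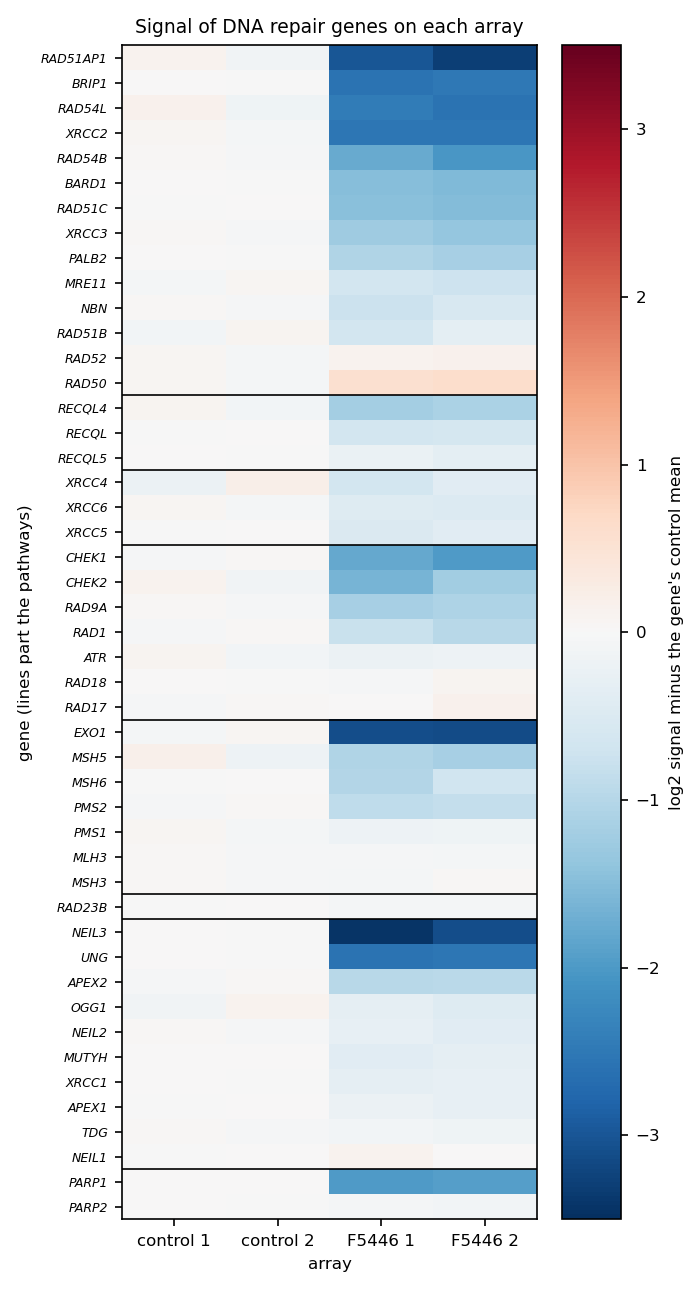
Log2 signal of the 47 repair genes on each of the 4 arrays (columns), minus the gene's mean over the 2 control arrays; lines part the pathways. The control columns are nearly blank, the F5446 columns are blue for most genes, and RAD50 is the clearest exception.

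The arrays of a group gave nearly the same value for each repair gene. The median absolute difference between replicate arrays was 0.08 log2 units in control cells and 0.09 after F5446 over the 47 genes, and the largest was 0.40 and 0.42. Over all named genes the medians were 0.13 and 0.12. The heat map of array values shows that both treated arrays carried the same pattern, with NEIL3, RAD51AP1 and EXO1 at the bottom of the scale on each. All 47 genes had a mean log2 signal above 4.42, the median of all probe sets, which serves here as the limit for dim genes. The table has no detection calls. Several of the steepest falls ended near that limit, so their fold changes may understate the true ones.

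**Figure D2:**
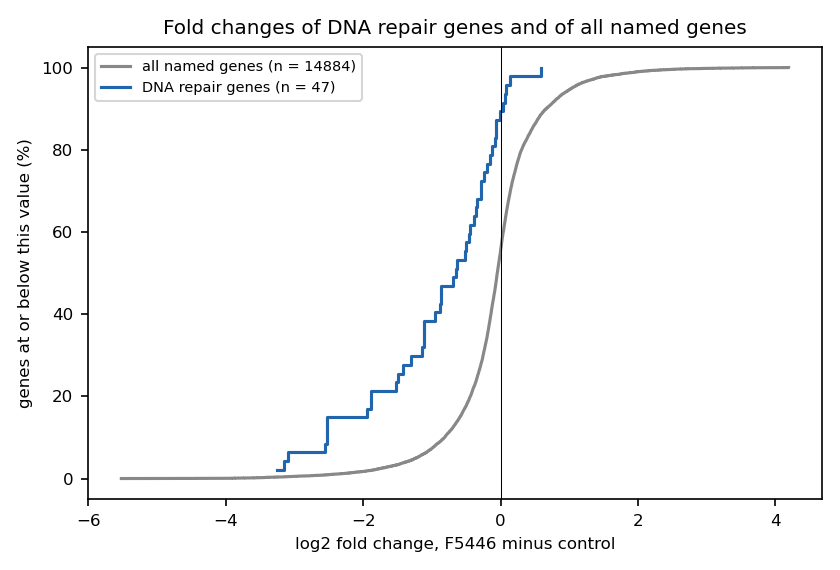
Cumulative share of genes (percent, vertical axis) at or below each log2 fold change (F5446 minus control) for the 47 repair genes and for all 14884 named genes. The repair genes' curve lies to the left, with medians of -0.65 and -0.05.

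Most of the homologous recombination genes fell. Of the 14 measured, the largest number of any pathway here, 12 fell and 1 rose, with a median log2 fold change of -1.40, and 9 fell at least 2-fold. RAD51AP1, which helps the recombinase filament pair with the template, had a log2 signal of 8.69 and 8.44 in control cells and 5.57 and 5.27 in treated cells. The nearest treated and control arrays were 2.88 log2 units apart, and the gene fell 8.87-fold (log2 fold change -3.15 ± 0.13, SE, limma adjusted p = 2.25e-07). RAD54L, a motor protein that remodels the paired DNA, went from 7.97 and 7.65 to 5.35 and 5.23 and fell 5.73-fold. Its relative RAD54B fell 3.72-fold, from 7.87 and 7.77 to 6.06 and 5.79. The 2 translocase genes thus moved the same way, and for neither did the groups overlap.

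The recombinase paralogs, which assist filament assembly, fell by unequal amounts. XRCC2 fell 5.75-fold, from 8.78 and 8.67 to 6.19 and 6.20 (limma adjusted p = 9.02e-08). RAD51C fell 2.82-fold, from 8.28 and 8.31 to 6.82 and 6.78. XRCC3, the partner of RAD51C in a smaller complex, fell 2.48-fold, from 6.87 and 6.81 to 5.59 and 5.48. RAD51B changed least of the paralogs, and its treated arrays lay below the limit for dim genes. Its log2 signal was 4.63 and 4.80 in control and 4.06 and 4.37 in treated cells, a log2 fold change of -0.50 ± 0.18 (SE) with a limma adjusted p of 0.049. That call was lost without any one of the 4 arrays (adjusted p from 0.06 to 0.28), with centring (0.12) and when adjusted over all probe sets (0.12).

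Further recombination genes also fell, while RAD52 did not pass. BRIP1, a helicase active at stalled forks and crosslinks, had log2 signals of 9.05 and 9.02 in control cells and 6.46 and 6.54 in treated cells, a 5.79-fold fall (log2 fold change -2.53 ± 0.08, SE, limma adjusted p = 6.30e-08). BARD1, a subunit of a ubiquitin ligase that directs break repair, fell 2.86-fold, from 7.28 and 7.24 to 5.78 and 5.71. PALB2, the scaffold that links this ligase to recombinase loading, fell 2.16-fold, from 8.18 and 8.15 to 7.11 and 7.01. BRIP1, PALB2, RAD51C and XRCC2 are also known as Fanconi anaemia genes, but here they were counted with homologous recombination only. RAD52, an annealing protein that serves a back-up route, was the measured recombination gene of smallest change. It gave 5.81 and 5.65 in control and 5.84 and 5.89 in treated cells, a log2 fold change of 0.14 ± 0.13 (SE, limma adjusted p = 0.47).

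RAD50 was the only repair gene of the 47 to rise. With MRE11 and NBN it forms the MRN complex, which binds broken ends and starts their resection. RAD50 had a log2 signal of 9.05 and 8.91 in control cells and 9.53 and 9.60 after F5446, and rose 1.5-fold (log2 fold change 0.59 ± 0.07, SE, limma adjusted p = 0.00015). MRE11, the nuclease, fell 1.61-fold, from 8.50 and 8.61 to 7.92 and 7.82 (adjusted p = 0.00012). NBN, the adaptor, fell 1.57-fold, from 8.79 and 8.71 to 8.01 and 8.18 (adjusted p = 0.0002). None of these groups overlapped, and all 3 calls held in each of the 11 alternative settings. RAD50's adjusted p reached 0.0094 at its highest. Within each array the log2 ratio of RAD50 to MRE11 went from 0.54 and 0.30 to 1.61 and 1.78, a change of 1.27. The ratio to NBN changed by 1.24. Ratios between different probe sets carry no level of their own, and only their change between arrays was read.

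**Figure D3:**
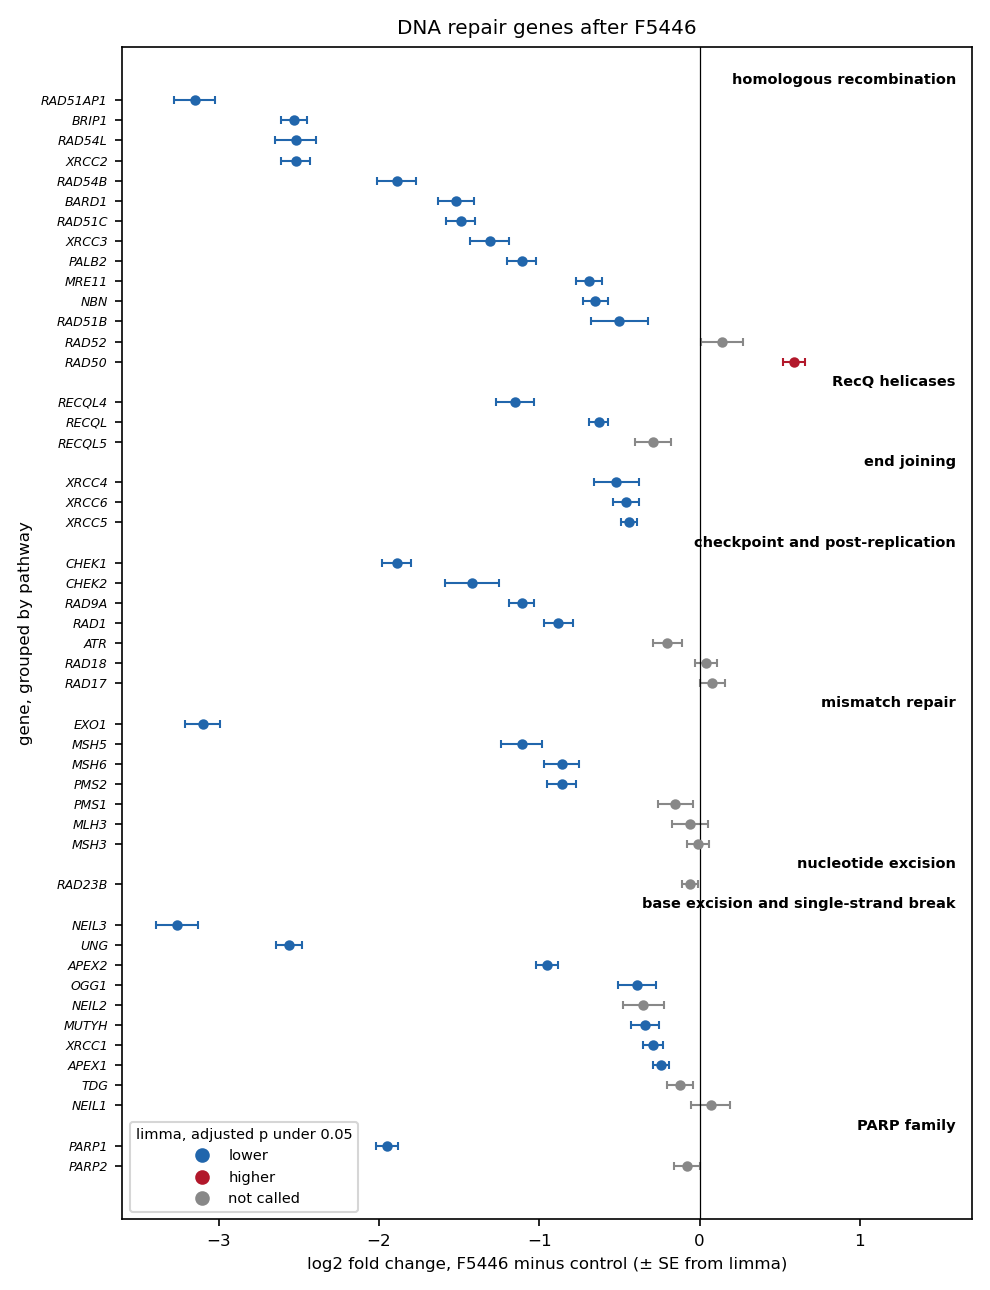
Log2 fold change (F5446 minus control) of each repair gene with its standard error from limma, grouped by pathway; blue fell, red rose, grey did not pass at an adjusted p of 0.05. Homologous recombination holds 12 falls among 14 genes, and each of the larger pathways holds both steep falls and genes near 0.

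Among the RecQ helicases, which unwind joined DNA structures at forks, 2 of 3 measured genes fell. RECQL4, a helicase that also takes part in starting replication, went from 6.96 and 6.78 to 5.67 and 5.77 and fell 2.22-fold (limma adjusted p = 5.55e-05). RECQL went from 9.52 and 9.57 to 8.89 and 8.94, a 1.55-fold fall. RECQL5 gave 6.86 and 6.84 in control and 6.62 and 6.50 in treated cells. Its groups did not overlap, but its log2 fold change of -0.29 ± 0.11 (SE) had a limma adjusted p of 0.052. Quantile normalization brought it past the threshold (0.031), as did leaving out dim genes (0.041).

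End joining genes fell by small and similar amounts. XRCC5 and XRCC6 encode the Ku subunits, a ring that grips broken ends before they are joined. XRCC5 had log2 signals of 11.79 and 11.84 in control and 11.31 and 11.43 in treated cells, a 1.36-fold fall (log2 fold change -0.44 ± 0.05, SE, limma adjusted p = 0.0001). XRCC6 went from 8.27 and 8.16 to 7.77 and 7.74, a 1.37-fold fall (adjusted p = 0.0015). The log2 ratio of XRCC5 to XRCC6 was 3.52 and 3.67 in control and 3.54 and 3.68 in treated arrays, a change of 0.01, and the groups overlapped. XRCC4, the partner of the ligase that seals the break, gave 7.89 and 8.28 in control and 7.44 and 7.69 in treated cells, a 1.44-fold fall with a limma adjusted p of 0.014. Its 2 control arrays were 0.40 apart, the widest of any repair gene. The XRCC4 call was lost without control replicate 2 (0.12) or F5446 replicate 1 (0.17), without an intensity trend (0.068) and when adjusted over all probe sets (0.083). The pathway's median log2 fold change was -0.46 over these 3 genes, and none of them fell 2-fold.

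Both measured effector kinases of the checkpoint fell. Among the genes that act upstream of them, some fell and some did not pass. Of 7 measured genes of the checkpoint and post-replication group, 4 fell and 3 did not pass. CHEK1, the kinase that slows the cycle when forks stall, had log2 signals of 9.26 and 9.33 in control and 7.50 and 7.31 in treated cells, a 3.71-fold fall (log2 fold change -1.89 ± 0.09, SE, limma adjusted p = 3.39e-07). CHEK2, the kinase that answers breaks, fell 2.68-fold, from 6.55 and 6.29 to 4.79 and 5.21 (adjusted p = 0.00014). The second, dim probe set of CHEK2 gave 3.13 and 3.82 in control and 2.39 and 2.17 in treated cells, a log2 difference of -1.19. ATR, the kinase that activates CHEK1, gave 8.13 and 7.95 in control and 7.83 and 7.85 in treated cells. Its log2 fold change of -0.20 ± 0.09 (SE) had a limma adjusted p of 0.11, and it passed after quantile normalization (0.038).

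The 9-1-1 clamp is a ring loaded on DNA at damaged sites, and its subunits and loader did not change alike. RAD9A fell 2.16-fold, from 8.78 and 8.70 to 7.59 and 7.67 (limma adjusted p = 4.79e-06). RAD1 fell 1.84-fold, from 8.31 and 8.37 to 7.55 and 7.38. HUS1, the remaining clamp subunit, lies outside the symbol pattern and was looked at after its values were seen. It went from 9.44 and 9.40 to 10.12 and 10.02 and rose 1.57-fold (limma adjusted p = 3.07e-05). RAD17, the clamp loader, gave 8.77 and 8.86 in control and 8.82 and 8.97 in treated cells, with overlapping groups and a log2 fold change of 0.08 ± 0.08 (SE, limma adjusted p = 0.49). RAD18, the ubiquitin ligase that opens lesion bypass, gave 8.74 and 8.70 against 8.69 and 8.82, a log2 fold change of 0.04 ± 0.07 (SE, limma adjusted p = 0.77). The last 2 genes were the only ones of the group whose arrays overlapped.

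Mismatch repair genes also split. Of 7 measured genes, 4 fell and 3 did not pass, with a median log2 fold change of -0.86. EXO1, the exonuclease that removes the strand with the error and also resects breaks, had log2 signals of 8.14 and 8.28 in control and 5.12 and 5.09 in treated cells. It fell 8.6-fold (log2 fold change -3.10 ± 0.11, SE, limma adjusted p = 7.83e-08). MSH6 and MSH3 are alternative partners in the mismatch-binding dimer, MSH6 for single mispairs and MSH3 for larger loops. MSH6 fell 1.81-fold, from 8.39 and 8.42 to 7.37 and 7.72 (limma adjusted p = 0.00024). MSH3 gave 9.05 and 8.96 in control and 8.95 and 9.04 in treated cells, a log2 fold change of -0.01 ± 0.07 (SE, limma adjusted p = 0.93), the smallest change of any repair gene. The log2 ratio of MSH6 to MSH3 changed by -0.85, with no overlap between groups.

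The MutL partners, among them the subunit PMS2 that cuts the DNA once a mismatch is bound, showed the same kind of split. PMS2 fell 1.81-fold, from 7.97 and 8.06 to 7.14 and 7.18 (limma adjusted p = 4.20e-05). MLH3 gave 6.36 and 6.28 in control and 6.27 and 6.25 in treated cells, a log2 fold change of -0.06 ± 0.11 (SE). PMS1 gave 6.72 and 6.56 against 6.47 and 6.50, a log2 fold change of -0.15 ± 0.11 (SE, limma adjusted p = 0.33). The log2 ratio of PMS2 to MLH3 changed by -0.80. MSH5, which is known for its role in meiotic recombination, fell 2.16-fold, from 8.17 and 7.79 to 6.94 and 6.81. Its second probe set gave 7.83 and 7.56 in control and 6.65 and 6.50 in treated cells, a log2 difference of -1.12 against -1.11 for the first.

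Base excision repair held the steepest fall of all 47 genes and also several small ones. Of its 10 measured genes, including those of single-strand break repair, 7 fell and 3 did not pass, with a median log2 fold change of -0.35. NEIL3, a glycosylase that opens oxidised bases and crosslinks at replication forks, had log2 signals of 8.50 and 8.46 in control and 5.06 and 5.39 in treated cells. It fell 9.57-fold (log2 fold change -3.26 ± 0.13, SE, limma adjusted p = 1.34e-07). UNG, which removes uracil from DNA, fell 5.88-fold, from 9.37 and 9.36 to 6.78 and 6.84 (limma adjusted p = 4.13e-08). APEX2, a fork-associated endonuclease, fell 1.94-fold, from 9.54 and 9.61 to 8.61 and 8.64. No other gene of the pathway fell by more than 1.31-fold.

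The remaining glycosylases changed little. NEIL1, a relative of NEIL3, gave 5.88 and 5.91 in control and 6.02 and 5.91 in treated cells, a log2 fold change of 0.07 ± 0.12 (SE, limma adjusted p = 0.71). NEIL2 gave 5.89 and 5.81 against 5.55 and 5.44, with a limma adjusted p of 0.058. Quantile normalization (0.037), a fit without an intensity trend (0.045) and leaving out dim genes (0.047) each brought it past the threshold. TDG, which removes thymine or modified cytosine paired with guanine, gave 8.44 and 8.35 against 8.29 and 8.25, a log2 fold change of -0.12 ± 0.08 (SE, limma adjusted p = 0.26). OGG1, which removes oxidised guanine, fell 1.31-fold (limma adjusted p = 0.033), and MUTYH, which removes adenine paired with oxidised guanine, fell 1.27-fold (0.016). With centring the adjusted p was 0.13 for OGG1 and 0.1 for MUTYH. The OGG1 call was also lost without control replicate 2 (0.19), F5446 replicate 1 (0.087) or F5446 replicate 2 (0.21), without an intensity trend (0.063) and when adjusted over all probe sets (0.1). The MUTYH call was lost without any one of the 4 arrays (0.061 to 0.12) and when adjusted over all probe sets (0.061).

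APEX1, the main endonuclease of the pathway, gave 11.16 and 11.19 in control and 10.96 and 10.90 in treated cells, a 1.18-fold fall with a limma adjusted p of 0.0031. XRCC1, the scaffold of single-strand break repair, went from 9.89 and 9.88 to 9.56 and 9.61, a 1.23-fold fall (0.0027). With centring the APEX1 call was lost (0.097), as were both calls without an intensity trend (0.11 and 0.062). APEX2 and APEX1 thus differed in size of change, and their log2 ratio changed by -0.71 with no overlap between groups. For UNG and TDG the change in ratio was -2.43, and for NEIL3 and NEIL1 it was -3.33. With each array centred, 4 genes of the pathway fell in place of 7.

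The PARP enzymes sense DNA breaks and mark the site with chains of ADP-ribose, and 2 of them were measured. PARP1, which makes most of these chains, had a log2 signal of 9.42 on both control arrays and 7.45 and 7.49 on the treated arrays, a 3.87-fold fall (log2 fold change -1.95 ± 0.07, SE, limma adjusted p = 1.08e-07). PARP2 gave 7.62 and 7.60 in control and 7.55 and 7.51 in treated cells, a log2 fold change of -0.08 ± 0.08 (SE, limma adjusted p = 0.53). The log2 ratio of PARP1 to PARP2 changed by -1.87. RAD23B, which stabilises the damage sensor of nucleotide excision repair, was that pathway's measured gene. It gave 10.12 and 10.17 in control and 10.07 and 10.09 in treated cells, a log2 fold change of -0.06 ± 0.05 (SE, limma adjusted p = 0.42).

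**Figure D4:**
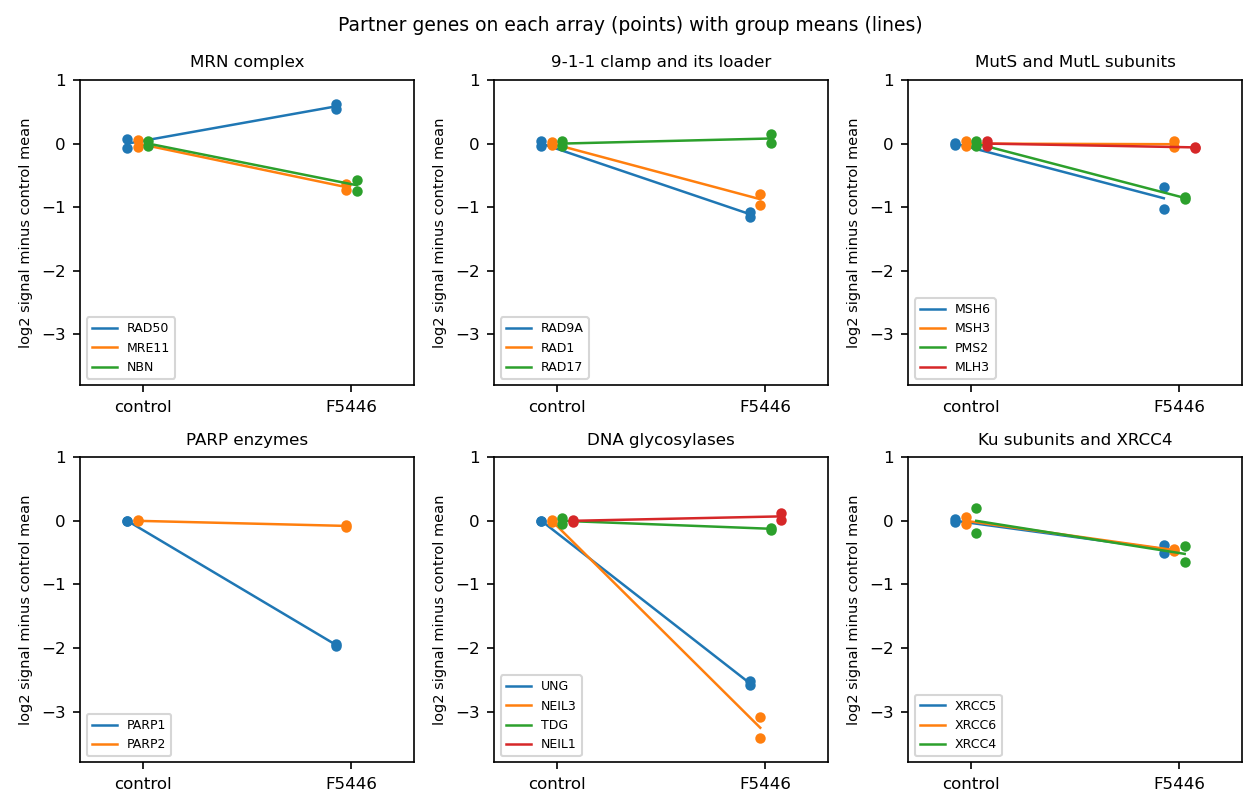
Log2 signal minus the gene's control mean (vertical axis) for genes that share a complex or a step; points are arrays, 2 a group, and lines join group means. RAD50 rose as MRE11 and NBN fell, PARP1 fell while PARP2 stayed near 0, and the Ku subunits XRCC5 and XRCC6 fell by like amounts.

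The pairs set against each other within arrays numbered 12 and were chosen after the values were seen. The plot of partner genes shows single genes, not ratios, and leaves out CHEK1 with ATR, APEX2 with APEX1 and RAD54L with RAD52. In 11 of the 12 pairs the change between groups was at least 0.71 log2 units in size with no overlap. XRCC5 with XRCC6 was the exception. Most pairs set a gene that fell beside a gene that did not pass, so the choice largely fixed that count. No share over all pairs of genes was taken, and the count is no result about repair genes. With 2 arrays against 2 an exact permutation test of a ratio cannot give a two-sided p below 0.33, so the ratios are given as values. The pairs not yet described were CHEK1 with ATR (-1.69), RAD9A with RAD17 (-1.19) and RAD54L with RAD52 (-2.66). Each holds a gene that fell and a gene that did not pass.

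Further repair genes outside the symbol pattern were listed by role, and 59 of 110 were measured. In all, 31 of the 59 fell, 12 rose and 16 did not pass, with a median log2 fold change of -0.36. The share that fell was 52.5%, against 22.7% of all named genes, while 18.2% of all named genes rose, a share near that of these lists. Of 18 measured crosslink and recombination genes, 11 fell and 3 rose. UBE2T, the conjugating enzyme that ubiquitinates the Fanconi anaemia dimer, fell 8.66-fold, from 9.46 and 9.52 to 6.40 and 6.36. EME1, a subunit of a nuclease that cuts joined molecules, fell 5.02-fold, and DNA2, a nuclease of end resection, fell 3.09-fold. UIMC1, a ubiquitin-binding protein of break sites, named after its value was seen, rose 2.41-fold, from 7.49 and 7.40 to 8.70 and 8.73 (limma adjusted p = 1.98e-06). Of 18 measured end joining and break signalling genes, 12 fell and 3 rose. CLSPN, the adaptor through which CHEK1 is switched on, fell 7.41-fold, from 8.76 and 8.79 to 5.88 and 5.89. CDC25C, a phosphatase that CHEK1 restrains, had a log2 fold change of -2.58, and TIMELESS, a fork protection factor, had one of -1.96.

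Excision repair and damage tolerance genes of these lists moved in both directions, as all named genes did. Of 14 measured excision genes 5 fell and 4 rose, beside 22.7% and 18.2% of all named genes. FEN1, the flap nuclease, fell 5.8-fold, and PCNA, the sliding clamp, fell 5.42-fold, from 11.27 and 11.38 to 8.86 and 8.91; both also serve replication. CDK7, a kinase of the transcription and repair factor TFIIH, rose 2.26-fold, from 8.08 and 8.25 to 9.29 and 9.39 (limma adjusted p = 3.85e-06). CCNH, its cyclin, named here after its value was seen, rose 1.38-fold. Of 9 measured damage tolerance genes 3 fell and 2 rose, with a median log2 fold change of -0.01, beside 22.7% and 18.2% of all named genes. HLTF, a translocase that remodels stalled forks, fell 5.62-fold, PRIMPOL, which restarts synthesis past lesions, 3.08-fold, and MAD2L2, a subunit of a lesion-bypass polymerase, 1.61-fold. POLK, a lesion-bypass polymerase, and UBE2B, the conjugating enzyme that works with RAD18, rose 1.6-fold and 1.5-fold; these too were named after their values were seen.

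**Figure D5:**
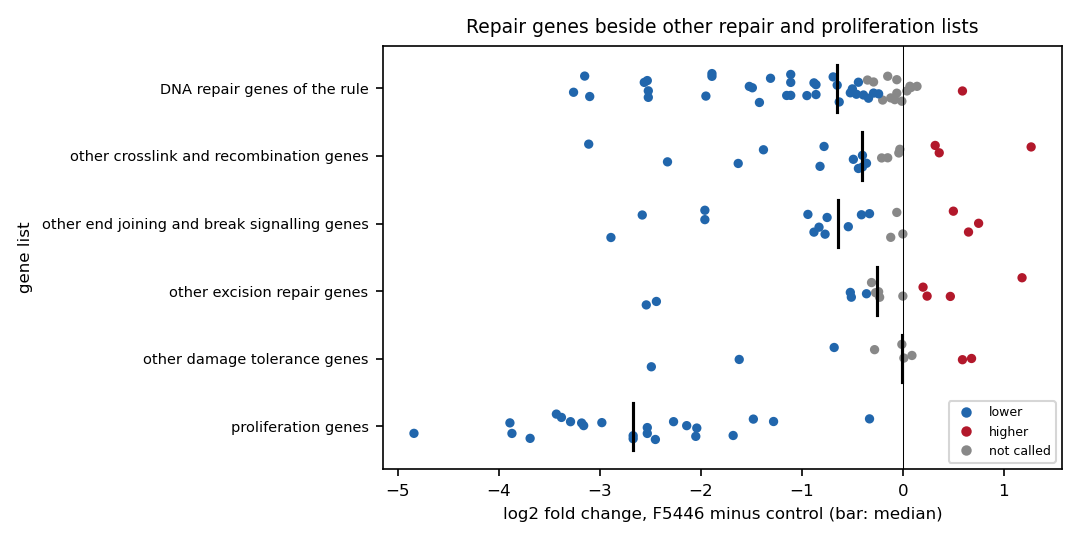
Log2 fold change (F5446 minus control) of each measured gene in the symbol-pattern list, 4 further repair lists and a proliferation list; points are genes coloured by call, vertical spread within a row carries no meaning, and bars are medians. Medians run from -2.67 for proliferation genes to -0.01 for damage tolerance genes.

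Proliferation genes moved with these results. All 23 listed were measured and all 23 fell, with a median log2 fold change of -2.67. Their summed linear signal was 22822 and 22789 in control and 3417 and 3193 in treated cells. TOP2A fell 28.7-fold, CCNA2, which encodes cyclin A, 14.9-fold, and TYMS, of thymidine synthesis, 14.7-fold. The part of this shift in the repair gene results was not tested. The lists, like the members, were chosen with earlier results of these data known.

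The labelled cell type was checked against its markers. Of 10 colon epithelial markers 9 were measured, of which 5 fell and 2 rose, where 22.7% of all named genes fell and 18.2% rose. The mean log2 signal in control cells was 11.81 for KRT18, 11.04 for EPCAM, 10.29 for VIL1, 10.07 for KRT19, 7.74 for KRT8, 6.29 for CDX2, 4.99 for CDX1, 4.46 for CEACAM5 and 3.34 for KRT20, the last below the limit for dim genes. VIL1, of the brush border, fell 14.7-fold, while CEACAM5 rose 3.8-fold and KRT19 rose 1.4-fold. Their summed linear signal was 8370 and 8401 in control and 4794 and 4844 in treated cells. Of 11 immune markers 6 were measured and 2, CD4 and LYZ, fell, with sums of 331 and 367 against 195 and 205. Of 10 stromal and endothelial markers 4 were measured and 1, LUM, fell 8.12-fold, with sums of 163 and 163 against 54 and 54. The mean log2 signal in control cells was 7.03 for LUM, 6.88 for CD4 and 6.71 for LYZ, each above that of CDX2. The other measured immune and stromal markers lay below CDX2 in control cells. The part of these marker shifts in the repair gene results was not tested.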

How the data were processed

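The deposited table holds 1 log2 signal per probe set and array, for 53617 probe sets. The log2 scale was inferred from the range of 0.71 to 13.8; per the submitters' processing notes, Partek was used, and its version and steps (background correction, normalization, summary, scaling) are not stated. Annotation names 16098 probe sets, each with 1 symbol. The other 37519 entered only as an alternative for adjustment. The fit used limma 3.58.1 (R 4.3.3) on the unchanged values of all 4 arrays, with treatment as its sole term and no filter on low signal, and eBayes with a trend on intensity; tests were two-sided, with Benjamini-Hochberg adjustment over 14884 genes; errors of fold changes are standard errors. The fit was tested on simulated data. The number of arrays limits the precision. Array values were given for every repair gene of the pattern except OGG1 and MUTYH. Of each further list, the 3 called genes of largest change were named, and others named from these lists are said to be so. Members and lists were chosen with earlier results of these data known. Alternatives were 2 rescalings, a model without trend, a dim-gene filter, averaged probe sets, a replicate block, adjustment over all probe sets, and each array left out. The reference sequences at hand were mouse, so promoter motifs and sequences were not used here.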

Additional observations from a re-analysis of the deposited data

How the results depend on the processing

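Of the 34 repair genes that passed, 28 passed in the same direction under all 11 alternatives; RAD51B, XRCC4, OGG1, MUTYH, APEX1 and XRCC1 lost the call in some, and RECQL5, ATR and NEIL2 gained one. The count of repair genes that fell ran from 29 to 36 and that of genes that rose was 1 throughout. With centring, 4 base excision genes fell in place of 7, and the repair genes' median was -0.53; it was -0.72 after quantile normalization, and from -0.72 (without control replicate 1) to -0.61 with 1 array left out. Genes that did not pass changed sign in some settings. With centring the log2 fold change was 0.11 for MSH3, 0.07 for MLH3, 0.06 for RAD23B, 0.05 for PARP2 and 0.00 for TDG. After quantile normalization it was -0.01 for RAD17 and -0.04 for RAD18. With 1 array left out it ran from -0.03 to 0.10 for RAD18 and from -0.06 to 0.03 for MSH3. The cause of these shifts was not tested, beyond the constant that centring adds. Same-numbered arrays deviated from their group means with a correlation of 0.044 across genes, so the numbers were not taken as pairs. With the replicate block 32 repair genes fell and 1 rose, with a median of -0.65, and OGG1 lost its call (adjusted p = 0.056). No count exists for the Fanconi anaemia list, which had no measured gene.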
